A study of Aspergillus niger with 8 samples.

Results

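Of 15431 gene models of the filamentous fungus Aspergillus niger, 152 (0.985%) formed the set described here. These genes had transcripts more abundant on glucose than in every culture without it. They were chosen by their own read counts. The reads of each library were expressed as CPM (reads scaled to a fixed total of reads on genes), 5 was added, and a gene was taken where the lower of both glucose values was at least 4 times the highest of the 6 values from straw and starvation. The fall from glucose is therefore a description with no test. Every library came from mycelia of strain N402, grown for 48 h with glucose as sole carbon source. The glucose condition was harvested at that point, and the others were washed, moved to new medium and harvested after 6 h with ball-milled wheat straw, after 6 h with no carbon source, or after 24 h with no carbon source. Each condition had 2 replicates, A and B, called cultures here, giving 8 libraries. Duplicate cultures are stated for the transferred conditions, and for glucose the p-values below may measure technical spread only. All 8 libraries were fitted in 1 model, so such spread would also enter the p-values of the comparisons without glucose. No culture was washed and returned to glucose, so the absence of glucose and the transfer itself cannot be told apart.

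Filamentous fungi draw on a large set of dispensable pathways beside their core metabolism. Nonribosomal peptide synthetases are very long enzymes that assemble peptides without the ribosome, among them siderophores, small molecules that bind iron outside the cell and are taken back up by dedicated transporters. The genes for such a product often lie side by side on a chromosome. Alpha-1,3-glucan is a polymer of the fungal cell wall made by large membrane-bound synthases.

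The 152 genes carried 12.1% of all reads on genes in glucose culture A and 12.6% in culture B. In the other 6 libraries they carried between 0.195% and 0.580%. The median member stood at 243 CPM in glucose A and 236 CPM in glucose B, and the lowest member at 23.6 CPM and 29.0 CPM. On straw the median was 6.66 CPM in A and 6.13 CPM in B, after 6 h of starvation 6.36 and 8.37 CPM, and after 24 h of starvation 3.12 and 4.86 CPM. A library of 24 h starvation B's size gives 4.86 CPM for 1 read, so the median member there rested on 1 read. The same held in 24 h starvation A, where 1 read gives 3.12 CPM. Of the members, 7 had no read in either straw library, 10 none after 6 h of starvation and 37 none after 24 h, and a count of 0 over both libraries allows up to 2.10, 3.61 and 5.70 CPM respectively. An08g03730 and TID_40820 had no read in any of the 6 libraries without glucose, and both were weakly transcribed on glucose (15 and 42 reads for An08g03730, 17 and 35 for TID_40820).

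**Figure D1:**
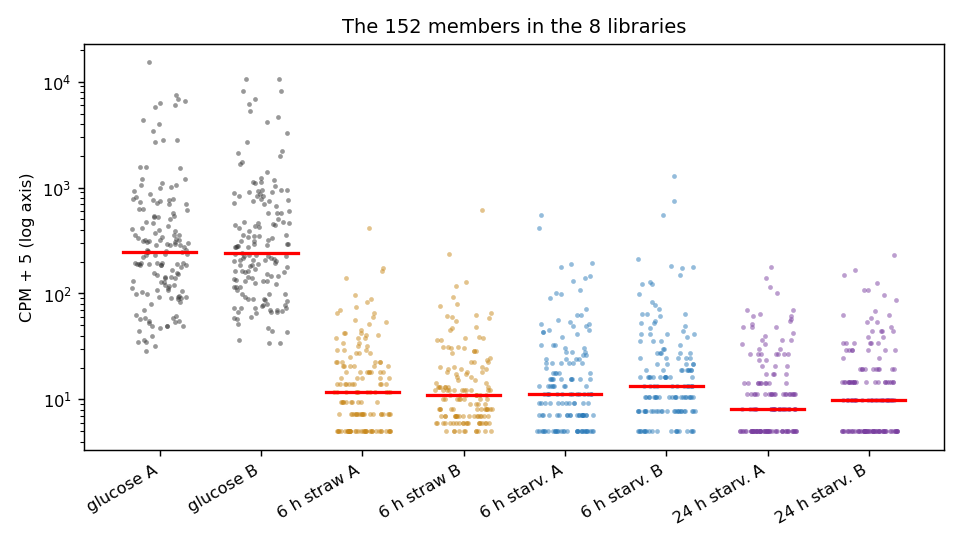
CPM + 5 of the 152 members (points) in each of the 8 libraries, on a log axis; the red line is the median of the members. The rule that chose the genes sets the gap between the glucose libraries and the rest; the lowest rows of points without glucose are members with 0 or 1 read.

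In bulk mycelium, fewer cells with a transcript and less of it per cell cannot be told apart. As a share of its own glucose level, the median member kept 1.99% on straw, 2.80% after 6 h of starvation and 1.59% after 24 h of starvation. The same median over the 10502 genes with reads on glucose was 84.7%, 76.2% and 95.5%. The rule that chose the members set this gap, and nothing is read from it. The residue was largest at 6 h of starvation for 74 members, on straw for 44 and at 24 h of starvation for 34. Library 6 h starvation B held the highest value without glucose for 53 members, more than any other library. For many members these ranks rest on few reads and on unequal depth. A single read gave 2.79 CPM in 6 h starvation B, 1.02 CPM in straw B and 4.86 CPM in 24 h starvation B.

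Transcript levels per length, as the deposited RPKM (reads scaled to model length and to all reads of the library), spanned from 0.464 to 416 on glucose, with a median of 6.36. The pair An01g14810 and An01g14820, direct neighbours by An number, stood out at the top. An01g14810 had 373 and 459 RPKM in glucose A and B, between 0.995 and 1.12 on straw, 1.42 and 0.756 after 6 h of starvation, and 0.121 and 0.129 after 24 h. An01g14820 had 244 and 241 RPKM on glucose, and no other library passed 0.907. These genes also had the largest ratios between the lower glucose value and the highest other value, 119 and 125 on the CPM + 5 scale. An01g14840, separated from them by a gene that was almost unread, had a ratio of 33.8. The available annotation gives no function for any of the 3.

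The other genes with the highest glucose RPKM were TID_42743 (a mean of 241), An02g08300 (216), An12g03760 (165), An03g00690 (159), An03g00660 (113), An01g13060 (110.0), An13g01760 (105), An16g05930 (104), TID_211877 (69.0) and An08g04880 (58.5). Identifiers that start with An come from the strain of the RefSeq assembly, and those that start with TID are models of a second genome annotation for which the files give no An counterpart. Gene descriptions were used here only for the first stretch of the gene list, with term annotation for some of the rest, so a gene without a stated function may have one that was not used. In these sources 27 of the 152 members have a function and none of the 10 does, and no member has a gene symbol in RefSeq.

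Among the steepest contrasts, the annotated gene was An01g09550, a predicted FAD-binding oxidoreductase, with 990 and 1257 reads on glucose and between 1 and 7 reads in each other library, a ratio of 82.5. An12g05510 had 769 and 883 reads on glucose, 11 over both straw libraries, 5 over both 6 h starvation libraries and none after 24 h, a ratio of 63.8. The remaining genes of the 10 largest ratios were TID_211885 (49.8), An03g00660 (42.0), An13g01760 (38.8), TID_211877 (36.7), TID_124807 (36.5) and An03g03530 (35.2). The median ratio of the members was 7.76, and 73 members reached 8, 32 reached 16, and 11 reached 32.

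At the threshold itself the set has no gap. Just inside were An16g03330 (ratio 4.07), An04g04240 (4.07), a predicted phosphate and manganese transporter, and An16g05910 (4.08). Just outside were An14g04640 (3.92), An11g09930 (3.91), annotated to ubiquinone biosynthesis, and An12g03020 (3.90). An12g03020 had no read without glucose and only 11 reads in each glucose library, so its exclusion rests on the 5 CPM added to all values.

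Members lay next to each other in the order of An numbers. Protein-coding genes of RefSeq assembly ASM285v2 (14058 genes) were ordered by An number, and their positions in the assembly were not used. In that order 134 members could be placed, and 32 of them (23.9%) were direct neighbours of another member. Of the genes outside the set, 1.58% had a member as direct neighbour. The 32 genes formed 11 pairs and 2 runs of 5.

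The first run, An03g00650 to An03g00690, opens with a gene of 6807 nt annotated to nonribosomal peptide biosynthesis. An03g00650 itself had 185 and 539 reads on glucose, 0 and 1 on straw, 0 and 5 after 6 h of starvation, and 0 and 1 after 24 h. An03g00660 was the most abundant of the run, with 62.4 and 163 RPKM on glucose and at most 0.826 elsewhere. An03g00670 (6.52 and 22.7 RPKM on glucose), An03g00680 (4.69 and 6.51) and the 169 nt model An03g00690 (99.7 and 218) completed it. In each of the 5 genes glucose culture B exceeded culture A, by 1.38 to 3.45 times in CPM. The gene before the run, An03g00640, looked like a member in 7 libraries, with 699 and 1035 reads on glucose and between 7 and 32 in 5 of the others, but had 156 reads in 24 h starvation B. Its ratio was 1.45, and 29.3 without that library.

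The second run, An03g03520 to An03g03560, also opens with a long gene annotated to nonribosomal peptide and toxin biosynthesis (An03g03520, 6033 nt), and closes with An03g03560, annotated to siderophore transport. An03g03520 had 152 and 235 reads on glucose, 5 and 5 on straw, 12 and 7 after 6 h of starvation, and 7 and 5 after 24 h. An03g03530 was the most abundant gene of this run, with 20.9 and 20.7 RPKM on glucose and at most 0.273 elsewhere. An03g03540 had 81 and 83 reads on glucose, An03g03550 102 and 95, and An03g03560 223 and 217, and none of the 3 passed 7 reads in another library. Here the glucose cultures lay close together, with B over A between 0.78 and 1.30. Reads ended sharply at both edges, where An03g03510 had 6 and 9 reads on glucose and An03g03570 had 7 and 7. A few genes further on, An03g03620, annotated to drug transport, was also a member, with 260 and 212 reads on glucose.

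**Figure D2:**
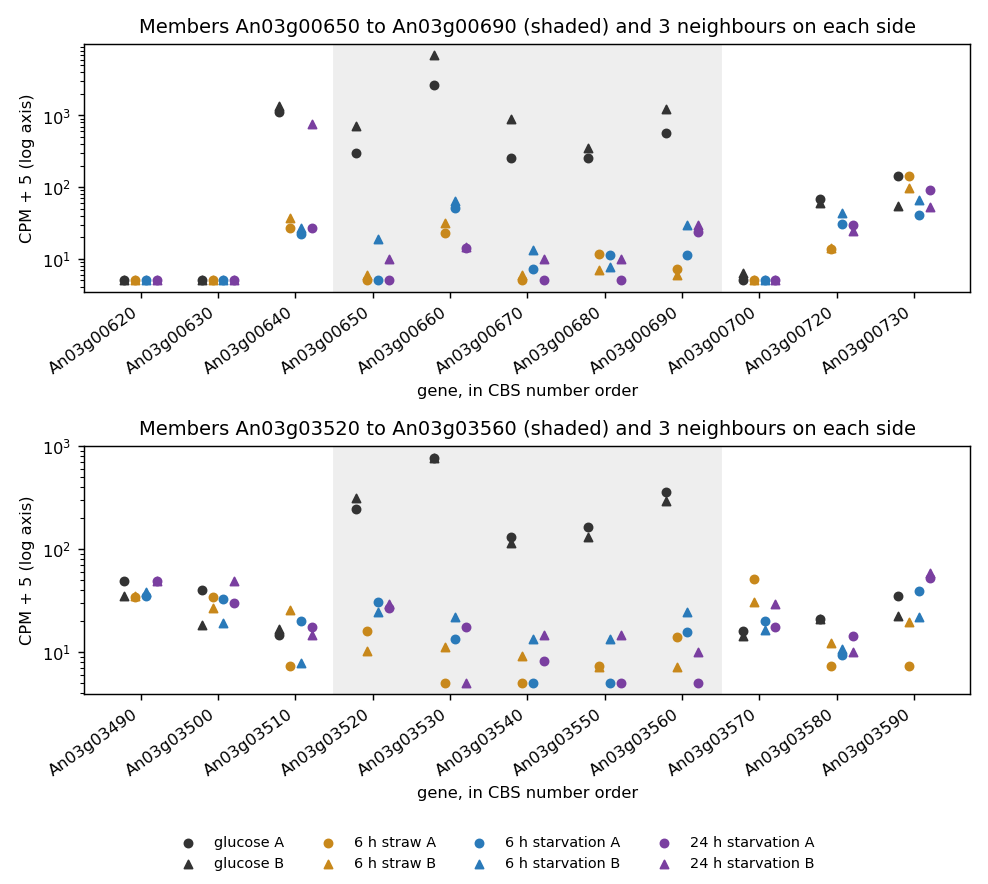
CPM + 5 (log axis) in each library for the 5 members of each run (shaded) and 3 genes on either side, in An number order; colours are conditions, circles culture A, triangles culture B. The shaded genes are high in the black glucose points, which the rule selected on; An03g00640 shares the pattern except in 24 h starvation B, and the genes on either side of the second run do not rise on glucose.

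The 11 pairs held several annotated genes. An12g02450, annotated as an alpha-1,3-glucan synthase (7221 nt), lay beside An12g02460. An12g02450 had 439 and 707 reads on glucose and between 3 and 13 in the other libraries, and An12g02460 had 11.2 and 12.1 RPKM on glucose and at most 0.242 elsewhere. An02g09540, annotated to gamma-aminobutyric acid transport, lay beside An02g09530, and An12g08570, annotated as a thioredoxin peroxidase, beside An12g08560. An01g08950, a predicted transmembrane transporter, lay beside An01g08960, a putative multicopper oxidase. In that pair the levels were far apart, with a mean of 31.3 RPKM on glucose for the transporter and 2.45 for the oxidase. Another pair held the longest member, An12g10440 (8436 nt, 1061 and 1031 CPM on glucose).

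In 10 places, exactly 1 gene separated 2 members. Of the 10 intervening genes, 8 had at most 11 reads in either glucose library, and the other two followed their neighbours. An12g03770, between An12g03760 and An12g03780, had 199 and 438 reads on glucose, 3 and 8 on straw, 16 and 29 after 6 h of starvation, and 1 and 2 after 24 h, and missed the threshold with a ratio of 3.70. An16g05920, between An16g05910 and An16g05930, had 918 and 1219 reads on glucose, 10 and 22 on straw, 115 and 202 after 6 h of starvation, and 6 and 18 after 24 h, a ratio of 2.55. Both genes were singled out after their values were seen. In both, 6 h starvation was the highest condition without glucose.

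Models with only a TID identifier made up 18 of the members (11.8%), against 8.55% of all gene models. Of these 18, 6 carry the number of scaffold 10 in their model name, as do 52 of all TID-only models, where the number was read from the form of the name and is not stated by a source. They included TID_211885, the member with the most reads on glucose, at 15181 CPM in glucose A and 8096 CPM in glucose B and between 29.2 and 158 CPM in the other libraries. TID_42743 had 7547 and 5252 CPM on glucose, TID_211877 had 5809 and 1967, and TID_124807 had 2832 and 1105. TID_211875 had 537 and 460 CPM, and TID_123782 had 184 and 84.4. All 6 were higher in glucose culture A than in B, with B over A from 0.339 for TID_211877 to 0.857 for TID_211875.

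The glucose cultures thus differed in opposite directions for different members. In the whole set the median of B over A was 1.07 and 130 members lay within 2-fold. In 12 members B exceeded A by more than 2-fold, and 4 of these were the An03g00650 to An03g00690 genes other than An03g00680. In 10 members A exceeded B by more than 2-fold, led by An07g05520 (702 CPM in A and 203 in B). The share of members outside 2-fold was 14.5%, against 8.11% of the 4343 genes with at least 15 reads in both glucose libraries. With 2 cultures, no test of a difference between them is possible.

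**Figure D3:**
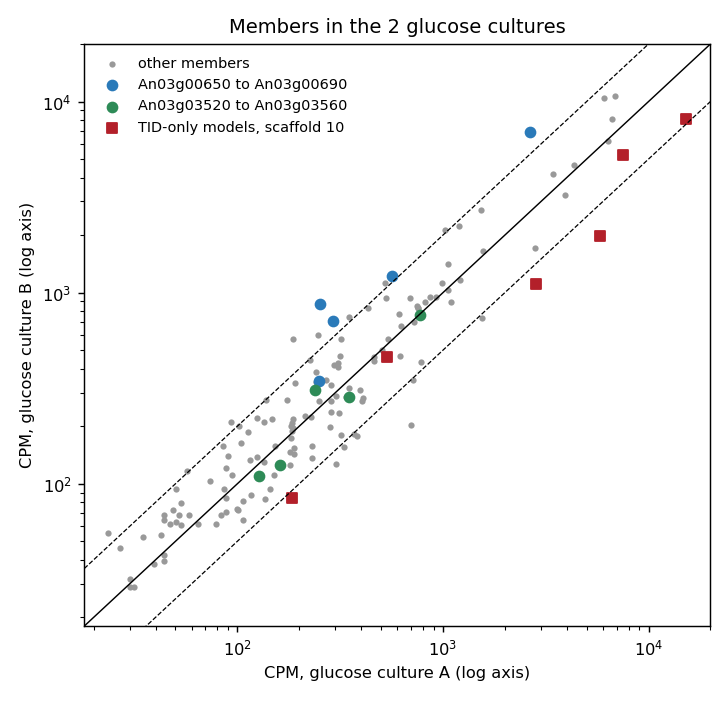
CPM of each member in glucose culture A (x) and B (y), both log axes; the solid line marks equality and the dashed lines a 2-fold difference. Blue points (An03g00650 to An03g00690) lie above equality, red squares (TID-only models with scaffold 10 read from the model name) below it, and green points (An03g03520 to An03g03560) close to it.

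Known functions were followed through 11 gene lists of 78 different genes, taken from the study's term annotation and known identities. Of these genes 18 were members. The annotation covers mainly genes called by the study from these same data, which leaves the counts without independent weight. In the iron and siderophore list 4 of 8 genes were members. An07g06240, annotated to siderophore transport, had 983 and 562 reads on glucose and at most 13 in any other library. An05g00220, annotated as a siderophore biosynthesis monooxygenase, had 295 and 348 reads on glucose, 15 and 23 on straw, and 2 to 5 in each starvation library. The other members of this list were An03g03560 and An03g03520, described above. Outside the set, An07g10010 came close with a ratio of 3.47. In contrast, An06g01300 was higher in both 6 h conditions, with 206 and 284 reads on glucose and at least 718 in each 6 h library. An01g08010 also ran the other way, with 1 and 0 reads on glucose and 87 and 103 on straw (ratio 0.0253). The remaining gene, An02g14190, had a ratio of 1.87.

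Of 5 amino acid transport genes, 3 were members, all annotated to gamma-aminobutyric acid transport. An02g09540 had 252 and 236 reads on glucose and at most 5 elsewhere. An03g00430 had 115 and 95 reads and at most 1 elsewhere. An12g10000 kept more, with 153 and 259 reads on glucose, 18 and 17 on straw, and 16 and 16 after 6 h of starvation. The fourth gene, An03g06860, missed the threshold with a ratio of 3.82, and An12g04180 had no read on glucose and 15 to 64 in each other library.

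The alpha-1,3-glucan synthase family was divided in starvation more than on straw. An12g02450 was the only member of 5. An04g09890 had a ratio of 3.52, with 58 and 84 reads on glucose. An02g03260 ran the other way in starvation only, with 21 and 19 reads on glucose and 249 and 125 after 24 h of starvation. On straw it had 3 and 1 reads. An09g03070 and An15g07810 had ratios of 0.123 and 0.336. On straw An15g07810 was lower, with 36 and 78 reads against 217 and 154 on glucose. An09g03070 was not, with 126 and 139 against 76 and 76. Of the 5 genes, 4 were called lower on straw than on glucose, by the calls defined below, and none higher. At 24 h of starvation 2 were called lower and 2 higher. An12g02450 was among those lower in each case, as the rule made it.

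Of 10 peptidase genes, 2 were members. An01g01750, a secreted protease of the sedolisin family, had 519 and 681 reads on glucose and 7 to 17 elsewhere. An01g11340, a predicted metalloaminopeptidase, had 197 and 310 on glucose and 3 to 21 elsewhere. An01g00530, an extracellular acid protease, had 425 and 614 reads on glucose and between 2 and 22 in 5 of the other libraries. It had 99 in 6 h starvation B, which set its ratio to 2.40. An14g04710 ran the other way, with 7 and 14 reads on glucose and 28 and 45 after 24 h of starvation (ratio 0.0716). The other peptidase genes had ratios from 0.368 (An01g00370) to 2.87 (An13g02130).

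Transport of other solutes gave An18g00400 (organic anions, 199 and 177 reads on glucose) and An04g04240 among 4 anion transport genes, and An11g07820 (41 and 47 reads) and An03g03620 among 6 drug transport genes. Of the other drug transport genes, An09g01700 had 2 and 0 reads on glucose and 254 and 47 after 6 h of starvation (ratio 0.0092). An09g00550 had 0 and 0 reads on glucose and 21 and 47 after 6 h of starvation (ratio 0.0367). The remaining drug transport genes, An01g06920 and An11g07780, had ratios of 1.19 and 1.91. An15g03900, annotated as a zinc transporter, had 203 and 434 reads on glucose. In ubiquinone synthesis An07g05610 was a member (119 and 149 reads) and An11g09930 just missed. Of 23 secondary metabolism genes 5 were members, with An01g08210 (regulation of secondary metabolism and conidium formation in orthologs, ratio 4.10), An06g01320 (11.8) and An03g00650 (15.6) beside An05g00220 and An03g03520. In contrast, the median ratio of that list was 0.114, against 0.675 over all gene models.

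No gene of the fumonisin-type block (12 genes), the oxalate list (4) or the thiamine list (3) was a member. The highest ratio in these lists was 2.85, of the thiamine gene An03g04280. Of the 12 fumonisin-type genes, 8 were abundant on glucose and had at most 9 reads in a straw library, but they stayed abundant after 6 h of starvation. An01g06820, for example, had 713 and 1453 reads on glucose, 7 and 5 on straw, and 1702 and 1418 after 6 h of starvation.

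**Figure D4:**
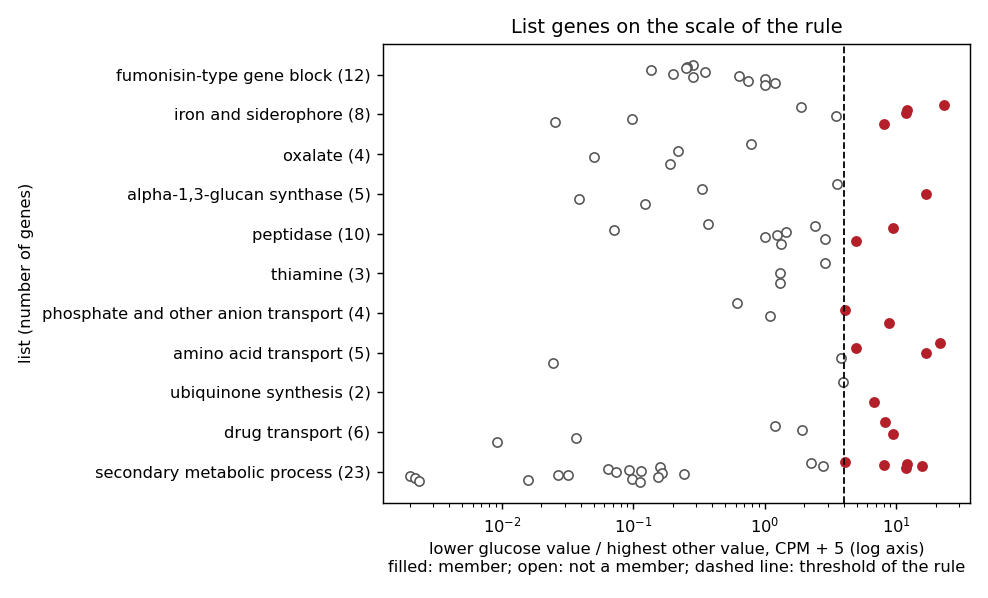
Ratio of the lower glucose value to the highest other value (CPM + 5, log axis) for each gene of the 11 lists, with list size in brackets; filled points are members, open points are not, and the dashed line is the threshold of 4. Filled points occur in 8 lists, with 5 of 23 genes in the secondary metabolic process list and 4 of 8 in the iron and siderophore list. An05g00220 and An03g03520 are in both of these lists and are drawn in each.

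Against glucose, 49 of the 73 list genes that could be tested were called lower on straw, 32 at 6 h of starvation and 39 at 24 h. A call here and below is an adjusted p under 0.05 from edgeR's quasi-likelihood test on the counts, with a ratio of mean RPKM of at least 3. Over all 6357 tested genes the shares called lower were 11.2%, 15% and 17.5%. The 18 members were among those called in each case, as the rule made them, and nothing is read from that. Of the 55 others, 31, 14 and 21 were called lower, and 11, 19 and 18 were called higher. The lists hold mainly genes that the study had called on these same libraries. The gap between their calls and the share of all tested genes is partly set by that, and nothing is read from it. The 3 comparisons share the glucose libraries.

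The cultures without glucose were also compared with each other. The rule capped the highest of these 6 libraries, so genes high in any of them were left out. The counts of calls below, above all those of rises, and the medians are partly set by that choice. They are given as a description beside the share or median of all tested genes, from which nothing is read about the members. All 152 members passed the filter on low counts, which glucose alone could secure for them, and 31 of them (20.4%) were called in at least 1 of the 3 comparisons, against 25.8% of all tested genes. Many calls rest on few reads. The comparisons share libraries in pairs, so their counts are not separate evidence.

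Between straw and 6 h starvation, 7 members (4.61%) were higher on straw, against 7.27% of all tested genes, and 9 (5.92%) were lower, against 5.13%. The fitted median member was 0.65 lower on straw on the log2 scale, against 0.01 higher for all tested genes. From pooled reads with conditions at 0 set to 3 reads, over the 122 members with more than 3 reads in either condition, the median was 0.64 lower, against 0.11 higher for all genes so treated. An16g02930, annotated to sterol metabolism, had the largest fold among the 7. It had 629 and 853 reads on glucose, 76 and 225 on straw, 8 and 2 after 6 h of starvation, and 3 and 3 after 24 h. The straw values were above all starvation values, 15.9-fold above 6 h starvation (log2 change 3.99 ± 0.53 SE, adjusted p = 2.27e-05). An01g13060 had 410 and 610 CPM on straw and 102 and 78.1 after 6 h of starvation, a change of 5.39-fold (log2 2.43 ± 0.43, adjusted p = 0.000499).

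TID_50980 and An13g03240 also stayed measurable on straw. TID_50980 had 22 and 53 reads on straw and 2 and 1 after 6 h of starvation (13.0-fold, adjusted p = 0.000394), and An13g03240 had 8 and 25 against 0 and 1 (15.0-fold, adjusted p = 0.00983). An08g04880 had 51.0 and 113 CPM on straw against 10.6 and 16.7 (5.94-fold, adjusted p = 0.00411). The zinc transporter An15g03900 was 3.30-fold higher (adjusted p = 0.0259). For An05g00220, the siderophore biosynthesis gene, the change was 3.56-fold (adjusted p = 0.0362), and it was lost in 11 of 16 alternative settings. Without straw B, 4 members were called higher on straw, and An08g04880 and An13g03240 were not among them. The call of An13g03240 was also lost without 6 h starvation A and with DESeq2.

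The 9 members that were lower on straw than at 6 h of starvation included An12g03760, An12g03780, An16g05910 and An16g05930, described above with the genes between them. An12g03760 had 37.7 and 25.5 CPM on straw, 541 and 1286 after 6 h of starvation, and 43.7 and 58.3 after 24 h. It was 30.4-fold lower on straw (log2 change -4.93 ± 0.57 SE, adjusted p = 5.95e-06), and both straw values lay below both 6 h starvation values. An12g03780 was 13.8-fold lower (adjusted p = 0.000443), An16g05910 18.5-fold (adjusted p = 4.79e-05) and An16g05930 7.19-fold (adjusted p = 0.000278). An02g08300 had 35.5 and 14.3 CPM on straw and 191 and 734 after 6 h of starvation, 20.2-fold lower (adjusted p = 0.000178). The transporter An01g08950 had 1 and 1 reads on straw and 11 and 5 after 6 h of starvation (12.2-fold lower, adjusted p = 0.00407).

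The remaining members lower on straw were An01g11340, the metalloaminopeptidase, with 3 and 5 reads on straw against 18 and 21 (8.50-fold, adjusted p = 0.00125), An03g03620, the drug transport gene, with 1 and 2 against 6 and 9 (8.31-fold, adjusted p = 0.00745), and An03g00690 with 1 and 1 against 3 and 9 (9.54-fold, adjusted p = 0.0249). The call of An03g00690 was lost without straw A, straw B or 6 h starvation B, and that of An01g08950 without straw B or 6 h starvation A.

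From 6 h to 24 h of starvation, 15 members (9.87%) fell, against 3.13% of all tested genes, and none rose, against 3.93%. Of the members, 3 were higher at 24 h at an unadjusted p under 0.05, and DESeq2 also called none. The rule left out genes that were high in either 24 h library. The share of falls, the absence of rises and the medians that follow are partly set by that, and are not results about the members. The fitted median member was 1.16 lower at 24 h on the log2 scale, against 0.08 lower for all tested genes. From pooled reads with conditions at 0 set to 3 reads, over the 103 members with more than 3 reads in either condition, the median was 0.56 lower, against 0.27 higher for all genes so treated. Of the 9 members that were lower on straw, 6 (An12g03760, An12g03780, An16g05910, An16g05930, An02g08300 and An01g08950) also fell between 6 h and 24 h of starvation. An12g03760 fell 22.2-fold (log2 change -4.47 ± 0.58 SE, adjusted p = 5.98e-05) and An12g03780 25.5-fold (adjusted p = 0.00106). Both comparisons use the same 6 h starvation libraries.

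The other falls included the most abundant members. An01g14810 had 24 and 8 reads at 6 h of starvation and 1 and 1 at 24 h (11.5-fold, adjusted p = 0.0112), and An01g14820 had 21 and 14 against 3 and 2 (5.37-fold, adjusted p = 0.0261). An13g01760 went from 142 and 173 CPM to 21.8 and 38.9 (6.61-fold, adjusted p = 0.00386), and An03g00660 from 46.6 and 58.6 CPM to 9.36 and 9.72 (6.68-fold, adjusted p = 0.0217). An18g02650 fell 6.51-fold and An02g10620 14.8-fold. TID_40161, with 14 reads over both libraries at 6 h and none at 24 h, was at least 2.96-fold lower. Without 24 h starvation A, the deeper library of that condition with 320375 reads on genes, 5 members were called lower at 24 h. The call of An01g14810 was lost without 24 h starvation A, 24 h starvation B or 6 h starvation A, and that of TID_40161 without either 24 h library.

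Between straw and 24 h starvation, 15 members (9.87%) were higher on straw, against 12.5% of all tested genes, and 2 (1.32%) lower, against 9.5%. An16g02930 (20.2-fold, adjusted p = 1.26e-05), TID_50980 (28.6-fold, adjusted p = 0.000153), An01g13060 (3.82-fold, adjusted p = 0.00209), An08g04880 (2.95-fold, adjusted p = 0.0403) and An13g03240 were thus higher on straw than in both starvation conditions. An13g03240, with 33 reads on straw and none at 24 h, was at least 4.05-fold higher. For 5 further calls without a read at 24 h, the bound stayed under 3, at 2.58-fold for An02g10610, 2.21-fold for An04g08060, 2.08-fold for An18g00400, 1.47-fold for TID_40161 and 1.35-fold for An12g05510. The ubiquinone gene An07g05610 had 10 and 23 reads on straw and 2 and 0 at 24 h (6.86-fold, adjusted p = 0.0178). Leaving out 24 h starvation A, 24 h starvation B or straw A reduced the 15 calls to 6, 9 and 9.

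The 2 members lower on straw than at 24 h of starvation were An03g00690, with 2 reads over both straw libraries and 11 at 24 h (10.9-fold lower, adjusted p = 0.0133), and the sedolisin protease An01g01750. An01g01750 had 17.7 and 7.15 CPM on straw and 31.2 and 82.6 at 24 h of starvation, 4.01-fold lower on straw (adjusted p = 0.0264). Neither call held without straw B. Without 24 h starvation B the call of each was lost too, and that of An03g00690 also without 24 h starvation A. Without 24 h starvation A, 4 members were called lower on straw, and without 24 h starvation B, 1 was.

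**Figure D5:**
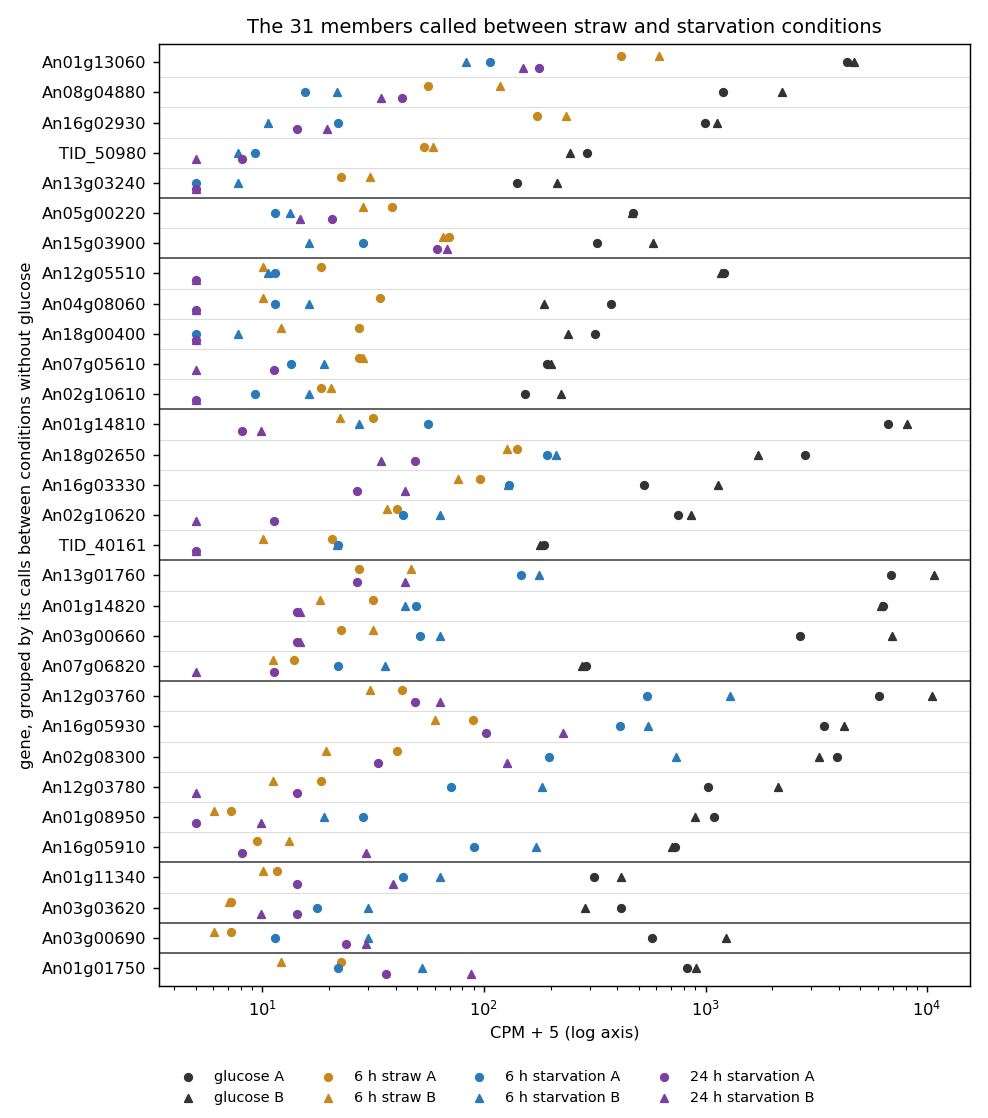
CPM + 5 (log axis) in each library for the 31 members called in at least 1 comparison without glucose, grouped by their calls (dark lines) and ordered by glucose level within a group; circles are culture A, triangles culture B. In the top group of 5 genes the straw points lie right of all starvation points, and in the group from An12g03760 to An16g05910 the 6 h starvation points lie right of straw and 24 h starvation.

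Across the series, the reads on genes ranged from 205778 to 979256 a library and made up 1.41% to 3.40% of all reads listed. That share differed between conditions, so ratios of RPKM, which divide by all reads, are shifted against the fold changes above. It was 1.97% and 3.40% on straw and 1.41% to 2.04% in starvation, which eased calls of higher on straw and hampered calls of lower. Against 24 h starvation, An08g04880 was called higher at 2.95-fold, with an RPKM ratio of 4.13. An12g09780 was 3.28-fold lower on straw (edgeR adjusted p = 0.0207) and was not called, with an RPKM ratio of 0.383. As a check of the straw labels, the xylanase gene xynA (An03g00940) had 129 and 113 RPKM on straw and at most 0.645 elsewhere. It was low on glucose and in starvation alike, so it cannot check those labels.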

How the data were processed

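The study sequenced ribosomal-RNA-depleted total RNA on a SOLiD 5500xl machine, mapped reads with LifeScope and counted uniquely aligned forward reads per gene with HTSeq. The deposited counts are raw, and the deposited RPKM values were computed by the authors from the counts, the model length and all reads listed in each file. The 5 summary rows were left out of library sizes and tests; reads on genes were 1.41% to 3.40% of all reads listed. The members and gene lists were chosen with earlier results of these data known. Counts of 6357 genes passing filterByExpr were fitted in edgeR 4.0.16 (R 4.3.3) with TMM scaling and the quasi-likelihood test, all 8 libraries in 1 model of condition, p-values adjusted over all tested genes by Benjamini-Hochberg, and the study's thresholds (adjusted p under 0.05, RPKM ratio of at least 3). The study's methods used DESeq; DESeq2 1.42.0 was an alternative. The test was checked on simulated data with a common level for each gene in all conditions, apart from genes changed in a condition. That setting lacks genes high on glucose with few reads elsewhere, so the check says nothing about the calls of members. Standard errors were taken from the test statistic. Model length was recovered from count and RPKM. Named genes were those with the highest glucose RPKM (12), the largest ratio (10), any list, the largest folds among calls (6 per direction), runs, and the threshold's edge; all other genes described (pairs of neighbours, TID-only models, remaining calls, genes at 0) were chosen after their values were seen. Annotation came from the study's tables, of which the description sheet was used only up to part of the second supercontig. Limits from a count of 0 take 3 reads over a condition and cover counting error only. Duplicate cultures are stated for straw and starvation, and the letters A and B are not stated to pair them.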

Additional observations from a re-analysis of the deposited data

How the results depend on the processing

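The number of members, 152, was 228 with 1 CPM added and 128 with 10 CPM, 154 with TMM-scaled CPM (148 shared) and between 159 and 203 when a library was left out. With thresholds of 2 and 8 it was 384 and 73. With all listed reads as denominator it was 36, where the added 5 CPM weighs more against the smaller values, and with that addition scaled down, an alternative chosen after seeing the data, it was 210, of which 149 were members. Fitting only the 2 conditions compared, where the count filter was rerun without the glucose libraries, lowered several counts of calls, with the cause not tested. It gave 4 members called higher on straw against 6 h starvation in place of 7. For members lower at 24 h than at 6 h of starvation it gave 9 in place of 15. On straw against 24 h starvation it gave 7 higher and 1 lower in place of 15 and 2. When each library was left out in turn, a lone library being assumed to vary like the rest, straw-over-6 h starvation calls numbered 4 to 6 and lower 7 to 12, members lower at 24 h than at 6 h of starvation 5 to 14 and higher 0, and members higher on straw than at 24 h 6 to 16 and lower 0 to 4. List genes lower than on glucose numbered 44 to 50 on straw, 29 to 33 at 6 h and 33 to 41 at 24 h of starvation. DESeq2, RLE factors, library totals, no count filter and other fold thresholds kept each of these counts within 1.5 times. With conditions without reads set to 3 reads, chosen after seeing the data, 10 calls on straw over 24 h and 14 at 24 h under 6 h were left. Of 404 repeats of the calls named by fold, 358 kept the call, 46 lost it and none changed direction. Repeats in which the gene failed the count filter were not fitted and are not among the 404. Calls of genes with few reads, such as An03g00690, An13g03240 and TID_40161, thus had 15 repeats in place of 16.

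The deviations of same-lettered libraries correlated across genes at 0.25 between straw and 6 h starvation, at 0.18 between 6 h and 24 h starvation and at under 0.1 in the other 4 pairs of conditions, so not every pair passed 0.1 and the letters were not taken to pair the cultures. With a replicate block, 9 members were higher and 10 lower on straw against 6 h starvation, 15 lower and 0 higher for 24 h against 6 h starvation, and 17 higher and 3 lower on straw than at 24 h.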

Other observations

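Several genes outside the set missed it through a single library. Under the rule, leaving out a library can only add members. Leaving out 24 h starvation B, the shallowest library, raised the number of members from 152 to 179, and leaving out 24 h starvation A raised it to 159. The number was 203 without glucose A, 188 without glucose B and 174 without straw B. An09g00670, whose number follows that of the member An09g00660, entered without 24 h starvation B. It had 1039 and 2320 reads on glucose, between 7 and 42 in 5 of the other libraries, and 113 in 24 h starvation B. An07g06490 had 86 and 105 reads on glucose, at most 2 in 5 of the other libraries, and 38 in 24 h starvation B. An07g06480 (158 and 330 reads on glucose, 47 in 24 h starvation B) and An07g06470 (186 and 447 on glucose, 592 in 24 h starvation B), whose numbers directly precede it, had at most 11 and 15 reads in the other libraries. Without glucose B, An07g06280 would have entered, with 109 reads in glucose A, 17 in glucose B and 1 in each straw library, and none in the starvation libraries. These genes were picked after their values were seen.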
